A study of Mus musculus with 4 samples.

Results

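The 83 genes described here encode the proteins of the human cytosolic ribosome. They were chosen by gene name, as human symbols that begin with RPL, RPS or RPLP and a number, or RPSA, without the RPS6K kinases, the RPS4Y genes and numbered pseudogenes, and with at least 100 unique molecular identifiers (UMIs, each counting 1 captured mRNA molecule) over all libraries. Of 33538 human genes in the deposited matrices, 89 were admitted by symbol and 83 passed the UMI minimum. The 6 that did not pass held between 0 and 87 UMIs each (RPL10L, RPL3L, RPL17-C18orf32, RPL34-AS1, RPL36A-HNRNPH2 and RPS10-NUDT3). The 83 members comprised 46 canonical genes of the large (60S) subunit, 31 of the small (40S) subunit, and 6 paralogs named after a canonical gene (RPL7L1, RPL22L1, RPL26L1, RPL36AL, RPL39L and RPS27L).

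Cells came from humanised (huNSG-SGM3) mice, which carry a human immune system grown from cord blood stem cells. All hosts shared the Prkdc scid and Il2rg deficiencies and a transgene that expresses human IL3, CSF2 (GM-CSF) and KITLG from the CMV promoter, and were 15 weeks of age per the labels. There were 4 libraries with 1 library per group, each pooled from several animals: blood of naïve mice without surgery, blood of sham mice 7 days after laminectomy at T9, and blood and spinal cord of mice 7 days after spinal cord injury (SCI) at T9. Naïve and sham hosts were male and the SCI pools held hosts of both sexes, so injury and host sex cannot be told apart, and the huCD45+ cells of the cord had in addition been released by papain digestion and enriched on magnetic beads before sorting. With 1 library per group no difference between groups could be tested, and all intervals given here cover counting error only.

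Ribosomal proteins, with ribosomal RNA, build the particle that translates mRNA, and each canonical protein is as a rule present once per ribosome. Their mRNAs are among the most abundant in any cell and start with a 5′ terminal oligopyrimidine (TOP) tract, through which the mTOR kinase and the RNA-binding protein LARP1 regulate their translation and stability together. Resting naïve T cells are known for a high share of these mRNAs in single-cell libraries, and myeloid cells for a low one.

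Barcodes with over 50% of their UMIs on human genes numbered 6713 (naïve blood), 4972 (sham blood), 6283 (SCI blood) and 138 (SCI cord). Their median depth was 3656, 5201, 4634 and 8569.5 human UMIs. No 2 libraries shared more than 10 of these barcodes. In the remaining, mostly mouse barcodes, which measure free human RNA, an average of 30.4 to 153 human UMIs were found, of which 4.66 to 11.2 were from members. Human barcodes held on average 351 or more member UMIs in every named class and library with at least 10 barcodes.

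Members took 16.6% of the human UMIs of naïve blood, 17.9% of those of sham blood, 22.1% after SCI in blood and 17.8% in the injured cord. The exact 95% binomial interval was 22.068% to 22.096% in SCI blood and 17.764% to 17.887% in the much smaller cord library. SCI blood therefore had the highest share and naïve blood the lowest, with sham blood and cord close together. Single barcodes showed the same order in blood, with medians of 16.5%, 17.4% and 22.2% and quartiles of 12.8% and 20.7% (naïve), 13.6% and 21.9% (sham) and 16.9% and 27.3% (SCI). Members exceeded 30% of UMIs in 2.04% of the barcodes of naïve blood, against 3.26% (sham), 13.6% (SCI blood) and 4.35% (cord). Counted as molecules, an SCI blood barcode held on average 1162 member UMIs and 4099 other UMIs, against 1065 and 4888 in sham and 765 and 3845 in naïve blood. Mitochondrial transcripts took 8.28% to 8.85% of UMIs in the 4 libraries, and the nuclear noncoding RNA MALAT1 took 3.61% to 4.19%.

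Cell classes were named from fixed marker genes after clustering without ribosomal protein genes. Values by class are given for naïve, sham and SCI blood, in this order. Naïve T-like cells (marker list with CCR7, LEF1, TCF7 and NOG) had the highest share in each library, at 26.8%, 28.1% and 30.1%. Of that list only NOG was among the leading genes of their cluster, which began with NRP2 and AK5. The list's median fold over all other barcodes was 2.58 in this cluster and 2.62 in the CD8 T-like one, so the list did not set them apart. CD8 T-like cells followed with 24.4%, 26.2% and 27.6%, B-like cells with 19.1%, 20.8% and 23.1%, and CD4 T-like cells with 17.3%, 18.1% and 20.1%. These 4 lymphoid classes kept this order in all 3 blood libraries. Lower values were found for cytotoxic memory T-like cells (15.4%, 16.1% and 18.1%), regulatory T (Treg)-like cells (14.1%, 14.9% and 17.9%) and cycling cells (14.2%, 14.6% and 16.9%). NK-like cells, of which each blood library held only 12 to 29, had 16.9%, 12.9% and 18.9%.

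Basophil or mast-like cells, which express the histamine-forming enzyme HDC and the protease CPA3, were low, with 10.1%, 9.67% and 12.2%. Monocyte-like cells, marked by S100A8, S100A9 and LYZ, were lowest, with 7.93%, 8.54% and 10.8% (161, 106 and 18 barcodes). Plasma-like cells were numerous only in naïve blood (424 barcodes, against 4 and 6 in sham and SCI blood) and had 14.3%. Immunoglobulin transcripts took 25% of the UMIs of these plasma-like cells, and with mitochondrial and immunoglobulin genes left out of the denominator their member share was 20.7%. Neighbouring classes overlapped widely between barcodes. In naïve blood the quartiles were 14.3% and 20.0% for CD4 T-like, 15.7% and 22.2% for B-like, and 11.5% and 16.3% for Treg-like cells. Those of naïve T-like cells (23.9% and 29.8%) lay above all of these, but overlapped those of CD8 T-like cells (21.7% and 27.5%).

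**Figure D1:**
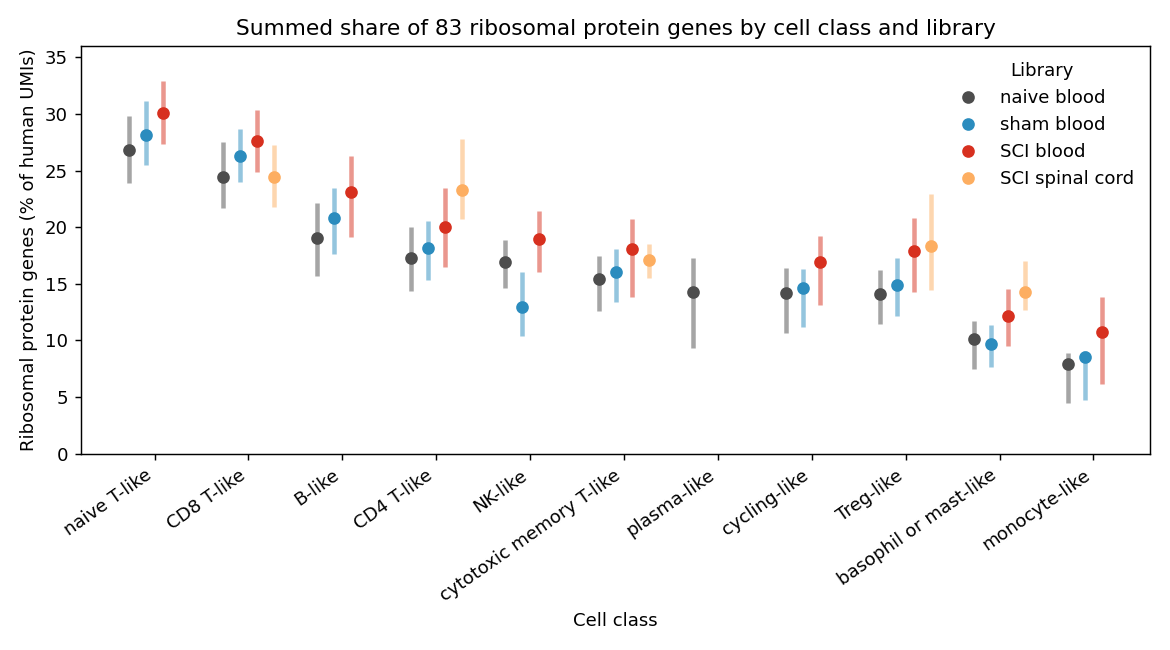
Share of human UMIs from the 83 members (vertical axis, percent) for each named class (horizontal axis) and library (colour). Points are pooled shares and vertical bars run from the lower to the upper quartile over barcodes. Naïve T-like cells are highest (26.8% to 30.1% in blood), monocyte-like cells lowest (7.93% to 10.8%), and SCI blood lies above naïve and sham blood in each class.

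The first question was whether circulating human leukocytes differed in these transcripts 7 days after injury. The pooled share was 1.33-fold higher in SCI than in naïve blood, a log2 ratio of 0.41, and higher than in sham blood by 0.30 on the log2 scale. SCI blood was above both other blood libraries in 10 of 10 classes with at least 10 barcodes in each. Against naïve blood, the log2 ratio was 0.44 in monocyte-like, 0.34 in Treg-like, 0.28 in B-like, 0.27 in basophil or mast-like, 0.26 in cycling, 0.23 in cytotoxic memory T-like, 0.21 in CD4 T-like, 0.18 in CD8 T-like, 0.17 in naïve T-like and 0.16 in NK-like cells. The naïve and CD8 T-like classes, with the highest shares, were thus among the 3 smallest ratios. Against sham blood, ratios ran from 0.07 in CD8 T-like cells to 0.33 in monocyte-like and in basophil or mast-like cells, with 0.55 in the few NK-like cells.

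The makeup of the libraries moved with the pooled value. In SCI blood, CD8 T-like cells were 23.3% of barcodes and naïve T-like cells 9.42%, against 10.0% and 2.79% in naïve and 12.7% and 2.59% in sham blood. Each class was next given the same weight in both libraries, namely the mean of its shares of UMIs in them. Only named classes with at least 10 barcodes in both libraries entered. With these weights the share was 21.3% in SCI against 18.1% in naïve blood (log2 ratio 0.23) and 21.2% against 19.1% in sham blood (0.15). Both values lay within the range of the single classes, and the pooled ratios exceeded them by more than 1.5 times. The B-like class joined a larger cluster (20.1% in naïve, 23.3% in SCI blood) and a smaller one (15.4% and 18.7%). The smaller cluster held 213 of 1254 B-like barcodes in naïve and 32 of 967 in SCI blood, so the mix inside this class differed. Its part in the class ratio was not tested. In this pooled RNA, more molecules per cell and a different mix of cell states inside a cluster cannot be told apart.

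**Figure D2:**
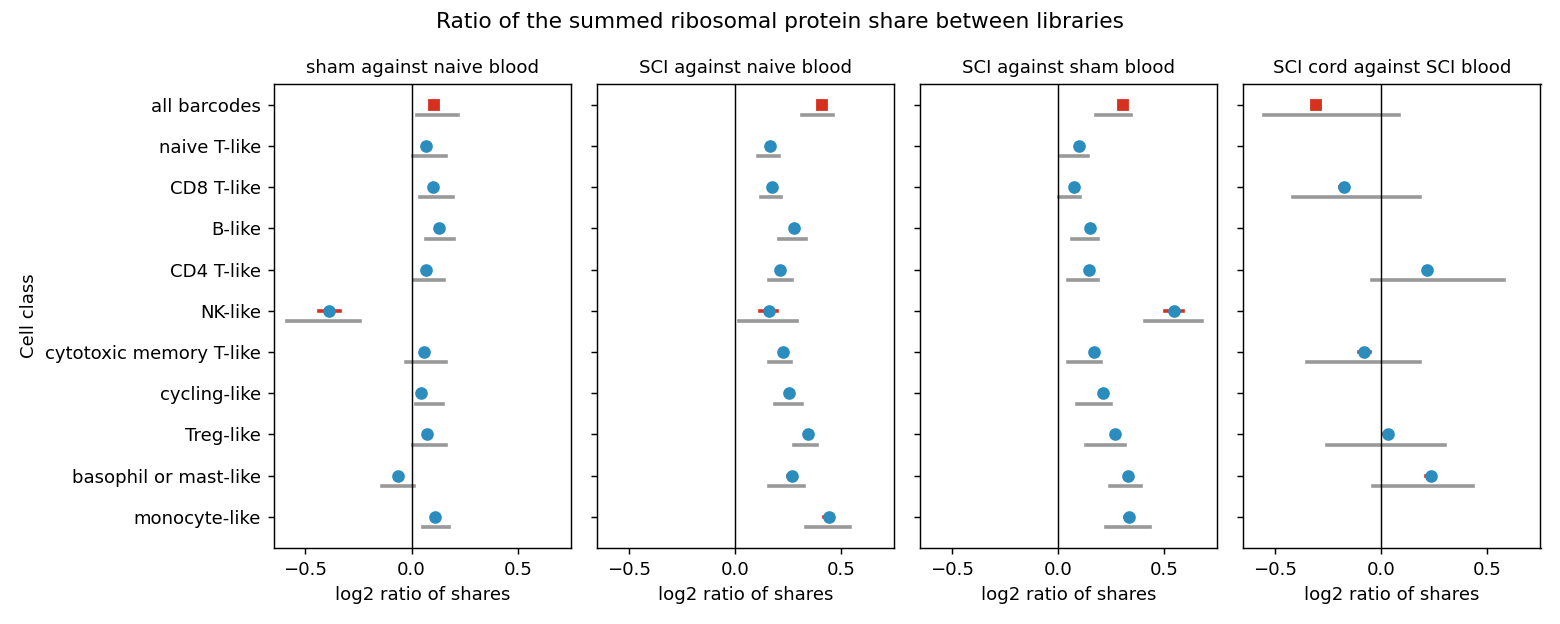
Log2 ratio of the summed member share between 2 libraries (horizontal axis) for all barcodes (red squares) and for each class (blue points), with 1 panel per comparison. Red lines are 95% counting intervals, mostly hidden by the points, and grey lines below each point span the quartiles of the single members. SCI blood is to the right of 0 in every class against naïve and sham blood, while the cord panel has classes on both sides.

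Single members moved with the sum in SCI blood. Against naïve blood, 76 of 83 members were higher and 71 were higher by at least 1.2-fold, where 12.4% of all 11798 genes tested were. A decrease of at least 1.2-fold was found for 2 members, beside 21.2% of all genes. The median member had a log2 ratio of 0.41 and the median gene -0.05. Against sham blood, 43 members were higher by at least 1.2-fold and 1 was lower, beside 7.58% and 17.4% of all genes. When each class had the same weight in both libraries, 29 members were higher by at least 1.2-fold against naïve blood, beside 6.16% of all genes. Against sham blood only 4 of 83 were, which is no larger a share than the 5.82% of all genes.

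The direction was repeated inside classes for most members. In the 8 classes with at least 100 barcodes in each blood library, 71 of 83 members were higher in SCI than in naïve blood in all 8, which held for 1.61% of all genes, and no member was lower in all 8, beside 7.36% of all genes. Against sham blood, 53 members were higher in all 8 classes, beside 1.55% of genes, and 1 was lower in all 8, beside 4.56%. The same naïve, sham and SCI libraries enter these comparisons, so they are not independent of each other.

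Levels are given as UMIs per 10000 human UMIs, in the order naïve, sham and SCI blood, then cord. RPL10, a 60S protein of the subunit interface and the most abundant member, had 59.3, 61.5, 80.8 and 55.8. RPL13 had 56.6, 58.2, 77.6 and 44.5, RPS18, a protein of the 40S head, 50.7, 51.8, 66.9 and 40.6, and RPS2 45.8, 44.1, 56.1 and 37.7. For these 4 members, naïve and sham blood lay close together, SCI blood was highest and the cord lowest. RPLP1, an acidic protein of the ribosomal stalk, had 46.5, 49.3, 56.7 and 52.2.

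RPL41, which encodes the shortest of the proteins, had 35.2, 40.5, 46.0 and 61.4, and RPS27, a zinc-finger protein of the 40S subunit, 31.1, 39.0, 48.5 and 52.8. RPS12 had 35.2, 41.0, 50.2 and 40.7, and RPL28 30.4, 35.6, 42.3 and 38.4. In these 4 members sham blood was already above naïve blood, and the cord was above naïve and sham blood for RPL41, RPS27 and RPL28. The members just named were among the 10 with the largest mean share of member UMIs, and ranged from 3.45% (RPL10) to 1.97% (RPL28) of it.

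The largest ratio of SCI to naïve blood was that of RPS4X, a 40S protein, at 0.76 (22.1, 22.5, 37.5 and 21.9 per 10000), with 0.73 against sham blood. RPS4Y genes were left out, so RPS4X does not count every transcript for this protein. RPS27 (0.64) and RPL39 (0.59), a very short protein at the exit tunnel, followed against naïve blood, and RPL3, which lies near the peptidyl transferase centre, was at 0.46 against sham blood. Against naïve blood 7 members were below 0, namely all 6 paralogs and RPS26, a 40S protein near the mRNA exit. RPL26L1 had -0.37 (0.586 against 0.453 per 10000 in naïve and SCI blood), RPL39L -0.36 (0.190 and 0.149), RPL22L1 -0.17, RPL36AL -0.13, RPL7L1 -0.12, RPS26 -0.09 and RPS27L -0.08. Inside the 8 large classes 3 of these 7 were higher in SCI blood in most classes, namely RPS26 in 7 of 8 (median log2 ratio 0.04), RPS27L in 6 (0.10) and RPL22L1 in 5 (0.05). RPL36AL and RPL39L were higher in 3 of 8 (medians -0.03 and -0.17), and RPL26L1 and RPL7L1 in 1 of 8 (-0.19 and -0.25). Against sham blood the lowest were RPL39L (-0.36), RPL26L1 (-0.15) and RPS26 and RPL36AL (both -0.09), whereas RPL22L1 was at 0.14. RPL39L rested on 491 to 589 UMIs per blood library.

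The second question was whether surgery without injury gave a similar difference. Sham blood was above naïve blood by 0.11 on the log2 scale. With mitochondrial and immunoglobulin genes out of the denominator this was 0.027, as immunoglobulin transcripts took 4.99% of UMIs in naïve and 0.336% in sham blood. In single classes the ratio was 0.05 to 0.13 in 8 classes and below 0 in basophil or mast-like (-0.06) and NK-like cells (-0.39, from 12 and 16 barcodes). In monocyte-like cells, where the pooled ratio was 0.11, the median over barcodes was not higher in sham (6.40%) than in naïve blood (6.48%). Of 83 members, 12 were higher by at least 1.2-fold, beside 15.2% of all genes, and 1 was lower, beside 12.3%. The 12 members were thus no larger a share than that of all genes. Scaling by trimmed means (TMM) gave 7 higher and 2 lower, for which the share over all genes was not taken.

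The highest ratios of sham to naïve blood were those of RPS10 (0.41), RPL36A (0.36) and RPL39 (0.33), and the lowest those of RPL22L1 (-0.31), RPL26L1 (-0.22) and RPL8 (-0.13). RPL22L1 turned to 0.05 with the same class weights in both libraries, and its SCI against naïve ratio to 0.06. Inside the 8 large classes RPL8 had a median ratio of -0.03 (-0.07 to 0.02) and RPL26L1 of -0.10, so the pooled sham values of these members were lower than those of the typical class. In all 8 large classes 15 members were higher in sham than in naïve blood, beside 1.26% of genes, and 1 (RPL13) was lower, beside 3.14%. Many of these genes had few UMIs in the small classes, so the shares are not like for like.

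The third question was how human cells inside the injured cord differed from those in the blood of injured mice. Pooled over barcodes, members were lower in the cord by a log2 ratio of -0.31. Inside classes no common direction was seen. The share was higher in the cord in CD4 T-like cells, with 23.3% against 20.1% (log2 ratio 0.22, 34 cord barcodes), and in basophil or mast-like cells, with 14.3% against 12.2% (0.23, 20 barcodes). It was 18.3% against 17.9% in Treg-like cells (0.03, 15 barcodes), 17.1% against 18.1% in cytotoxic memory T-like cells (-0.08, 10 barcodes) and 24.4% against 27.6% in CD8 T-like cells (-0.18, 10 barcodes). Of the 34 CD4 T-like cord barcodes, 28 fell in 1 cluster, in which the cord share was 23.4% and the SCI blood share 21.2%. With the same class weights in both libraries, over these 5 classes, the log2 ratio turned to 0.05 (20.8% in cord and 20.1% in blood).

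The low pooled value of the cord moved with its makeup. Basophil or mast-like cells were 14.5% of cord and 2.29% of SCI blood barcodes. A further 15.9% of cord barcodes stayed unnamed, 18 of them in a cluster led by CLC, CLU and VSTM1, and their member share was 8.15%. Without unnamed and plasma-like barcodes the pooled log2 ratio was -0.21. Immediate early and dissociation genes were higher in the cord by at least 1.2-fold in 11 of 11 tested, beside 33% of all genes. Their median log2 ratio was 1.45, and JUND, the most abundant of them, had 11.4 per 10000 in cord against 8.17 in SCI blood. Their part in the member values was not tested.

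Single members split in the cord. At least 1.2-fold higher were 12 of 83, beside 33% of all 10641 genes tested, and at least 1.2-fold lower were 45, beside 27.8%. With the same class weights in both libraries, 25 were higher and 14 lower, beside 27.4% and 33.3% of all genes. Inside the 5 classes, 23 members were higher in the cord in all of them, beside 11.5% of all genes, and 15 in none, beside 3.64%. Many of all genes had few UMIs in single cord classes, so these shares are not like for like. RPL36A, whose product lies near the tRNA exit site, was at 1.16 pooled (0.953, 1.22, 1.32 and 2.93 per 10000 in naïve, sham and SCI blood and cord) and at 1.31 to 1.84 in the 5 classes. RPS10 was at 0.94 (2.89, 3.85, 4.11 and 7.87 per 10000). RPS10 was higher in each class by 0.95 or more. Among the lowest pooled ratios were those of RPL13 (-0.80) and RPS4X (-0.77). RPL13 was lower in the cord in all 5 classes, with ratios of -0.49 to -0.11.

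The members that differed in direction between cord and blood differed in length, which the choice of members did not use. No human annotation was used here, so the coding length of the mouse gene of the same symbol was taken (GENCODE M21), which was found for 81 of 83 members. The 23 members higher in the cord in all 5 classes had a median coding length of 330 bases (75 to 552), and the 15 that were higher in none 633 bases (357 to 1257). Among the former were RPL41, RPL39, RPS29, RPS28, RPL38, RPS21, RPS27, RPL37A, RPL37, RPL36 and RPL36A, and among the latter RPL3, RPL4, RPL8, RPS6 and RPL13. Of the shortest 27 members (75 to 390 bases), 9 were at least 1.2-fold higher and 2 lower in the pooled cord library, where 33% of all genes were higher, so that the short members were higher about as often as genes in general. Of the 27 longest (564 to 1257 bases), 25 were at least 1.2-fold lower, beside 27.8% of all genes, and none was above 0.

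Across the 81 members, Spearman's rho between coding length and the log2 ratio of cord to SCI blood was -0.73, and it lay between -0.80 and -0.58 in the 5 classes. Across 9015 other genes with a mouse length it was -0.05. For sham against naïve blood rho was -0.57 over members (-0.73 to -0.43 in the 8 large classes) and 0.07 over 9678 other genes. The median ratio of the shortest 27 members was 0.22 and that of the longest 27 was 0.02. For SCI against sham blood the sign was opposite, with rho 0.57 (0.35 to 0.62 in the classes) and medians of 0.20 and 0.35. For SCI against naïve blood rho was -0.20 (-0.34 to 0.11) and the medians were 0.43 and 0.36. The comparisons share libraries, the sham library entering with opposite sign, and genes are not independent replicates, so these values describe the 4 libraries. Length was examined after the cord values had been seen. The full mRNA length of the mouse genes gave rho of -0.39 for the cord and -0.31 for sham against naïve blood. Library preparation and read mapping can act on short transcripts, which was not tested.

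**Figure D3:**
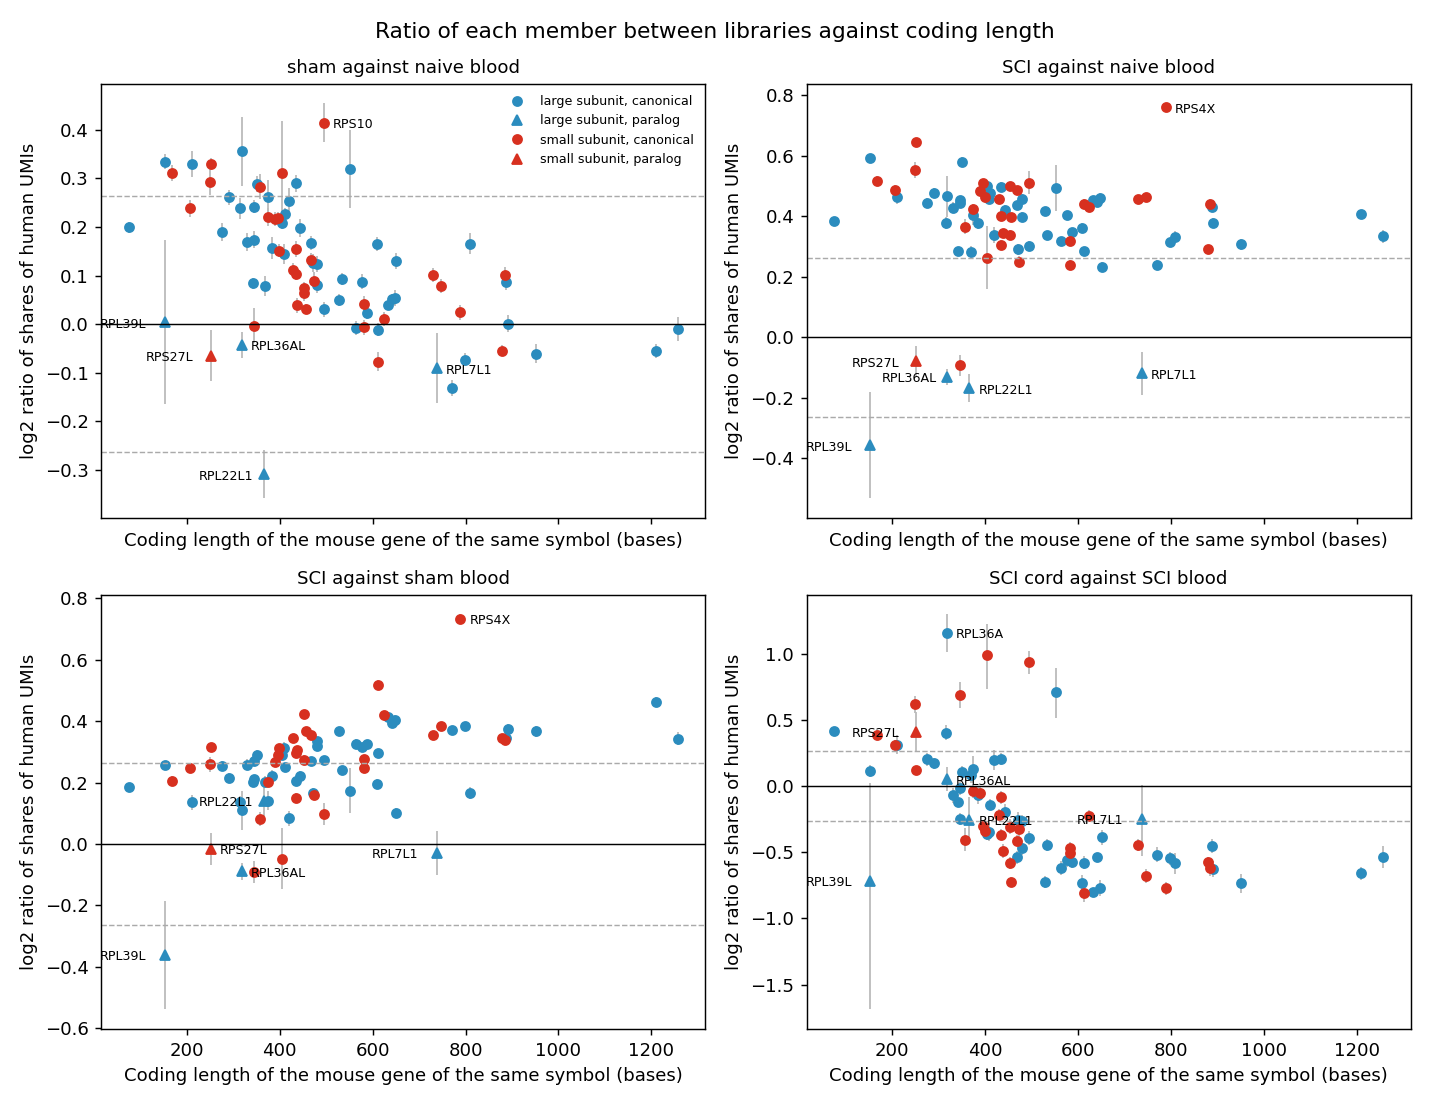
Log2 ratio of the share of human UMIs between 2 libraries (vertical axis) for 81 members against the coding length of the mouse gene of the same symbol (horizontal axis, bases), in 1 panel per comparison. Circles are canonical members, triangles paralogs, grey lines 95% counting intervals and dashed lines the 1.2-fold limits, and the paralogs and the highest member of each panel are named. Short members lie above long ones in the cord (rho -0.73) and sham panels (-0.57) and below them for SCI against sham blood (0.57).

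Within the total of member UMIs, cell classes differed little for most members and widely for a few. The share of member UMIs taken by the large subunit was 57.6% to 58.3% of those from canonical genes in the 4 libraries. Over 10 classes with at least 100 blood barcodes, the median member had a log2 range of 0.48 between its highest and lowest class. The 5 widest were all paralogs. The share of member UMIs was lowest in the naïve T-like class for each of them, but the level was not always. In the unit of levels given above, RPL22L1 was at 1.71, 1.92 and 2.17 in naïve T-like cells of naïve, sham and SCI blood. CD4 T-like cells were lower, with 1.33, 1.35 and 1.33, and B-like cells higher, with 3.64, 3.58 and 3.88. RPL39L, a variant of RPL39 otherwise known from testis, ranged widest, from 0.00163% of member UMIs in naïve T-like to 0.0532% in cycling cells. The naïve T-like value rested on only 1, 0 and 21 UMIs of RPL39L in naïve, sham and SCI blood. RPS27L, a p53 target gene, had a log2 range of 2.80, from 0.0544% to 0.378% in basophil or mast-like cells. RPL26L1 ranged by 2.18 and RPL22L1 by 2.10, both highest in plasma-like cells at 0.0609% and 0.300%. RPL36AL ranged by 2.03, from 0.187% to 0.765% in basophil or mast-like cells. These ranges are relative to the member total, which was highest in naïve T-like cells and low in basophil or mast-like cells. As a level, in the same unit, RPL36AL differed less, with 5.8, 5.3 and 5.4 in naïve T-like cells of naïve, sham and SCI blood. In basophil or mast-like cells it had 8.4, 8.2 and 8.1. How far the total enters the ranges of single members, RPS26 among them, was not tested.

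Among canonical members RPS26 ranged most (1.78), from 0.122% in naïve T-like to 0.420% in plasma-like cells. RPLP0, the base of the stalk, was at 1.26% in cycling and 1.24% in plasma-like cells and at 0.554% to 0.808% in the other classes. RPS27 was at 1.07% in plasma-like and 1.43% in cycling cells, against 1.64% to 2.30% elsewhere. RPL13 was highest in naïve T-like (0.32 above its mean over classes on the log2 scale) and CD8 T-like cells (0.31), and monocyte-like cells had the lowest share of RPSA (-0.40), also known as a laminin receptor, and of RPS4X (-0.31). Cytotoxic memory T-like cells were highest in RPS15A (0.40). The clusters were made without these genes, and no difference between classes was tested.

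**Figure D4:**
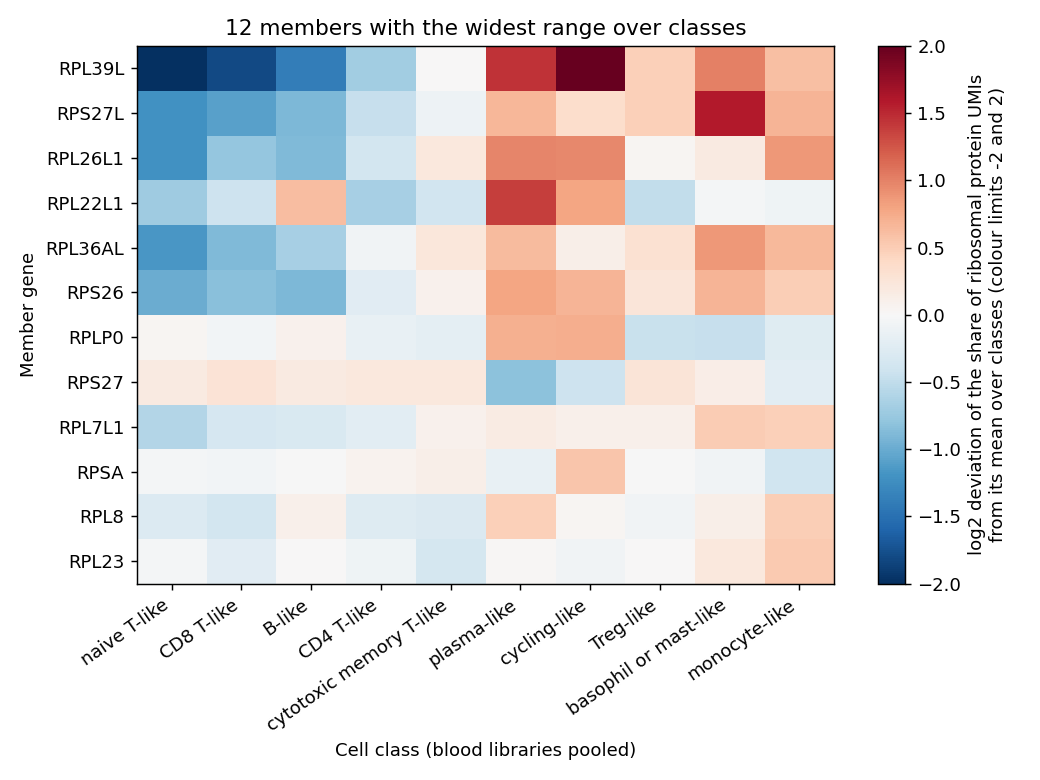
Log2 deviation of each member's share of member UMIs from its mean over classes (colour) for the 12 members with the widest range (rows) in 10 classes (columns, blood libraries pooled). The 5 paralogs at the top are blue in naïve T-like cells, RPL39L is highest in cycling cells (2.67, beyond the colour limit), and RPS27L in basophil or mast-like cells (1.58).

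Paralogs were minor beside their canonical genes, except RPL36AL. Together they took 0.815% (naïve), 0.705% (sham), 0.555% (SCI blood) and 0.706% (cord) of member UMIs. RPL22L1 made up 19.1%, 14.6%, 13.9% and 12.4% of the UMIs of the RPL22 pair, in the same order of libraries. Its share in B-like cells was 25.2%, 23.9% and 23.6% in the 3 blood libraries, and in CD4 T-like cells 10.6%, 9.93% and 9.31%. It was 32.2% (95% interval 31.1% to 33.2%) in plasma-like cells of naïve blood. B-like and CD4 T-like cells were separated in each library, and the libraries differed less than these classes.

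RPS27L was 16.1%, 15.5% and 14.8% of its pair in basophil or mast-like cells in naïve, sham and SCI blood, and 7.64% there in the cord. In CD8 T-like cells it was 3.00%, 2.40% and 2.47%. RPL39L was 5.59%, 5.18% and 3.81% of its pair in cycling cells and at most 1.59% in the other classes of these libraries, apart from plasma-like cells of naïve blood with 2.82%. RPL26L1 was highest in cycling (7.25%, 6.82% and 5.23%) and plasma-like cells (6.89%). RPL7L1 was 8.43%, 7.16%, 6.31% and 7.82% of the RPL7 pair, in that order again.

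RPL36AL outnumbered RPL36A and took 88.4%, 85.2% and 83.4% of the pair in naïve, sham and SCI blood and 70.1% in the cord. In the cord its share of the pair was lower than in SCI blood in each class with values, for example 63.1% against 86.8% in CD4 T-like and 71.0% against 89.8% in Treg-like cells. The pooled level of RPL36AL itself was 6.61 per 10000 in SCI blood and 6.85 in the cord, with the cord higher in 2 of 5 classes, while RPL36A had 1.32 and 2.93. Near-identical pseudogenes and the mouse orthologues in the combined reference can take reads from single members, and how far this differs between members was not tested.

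**Figure D5:**
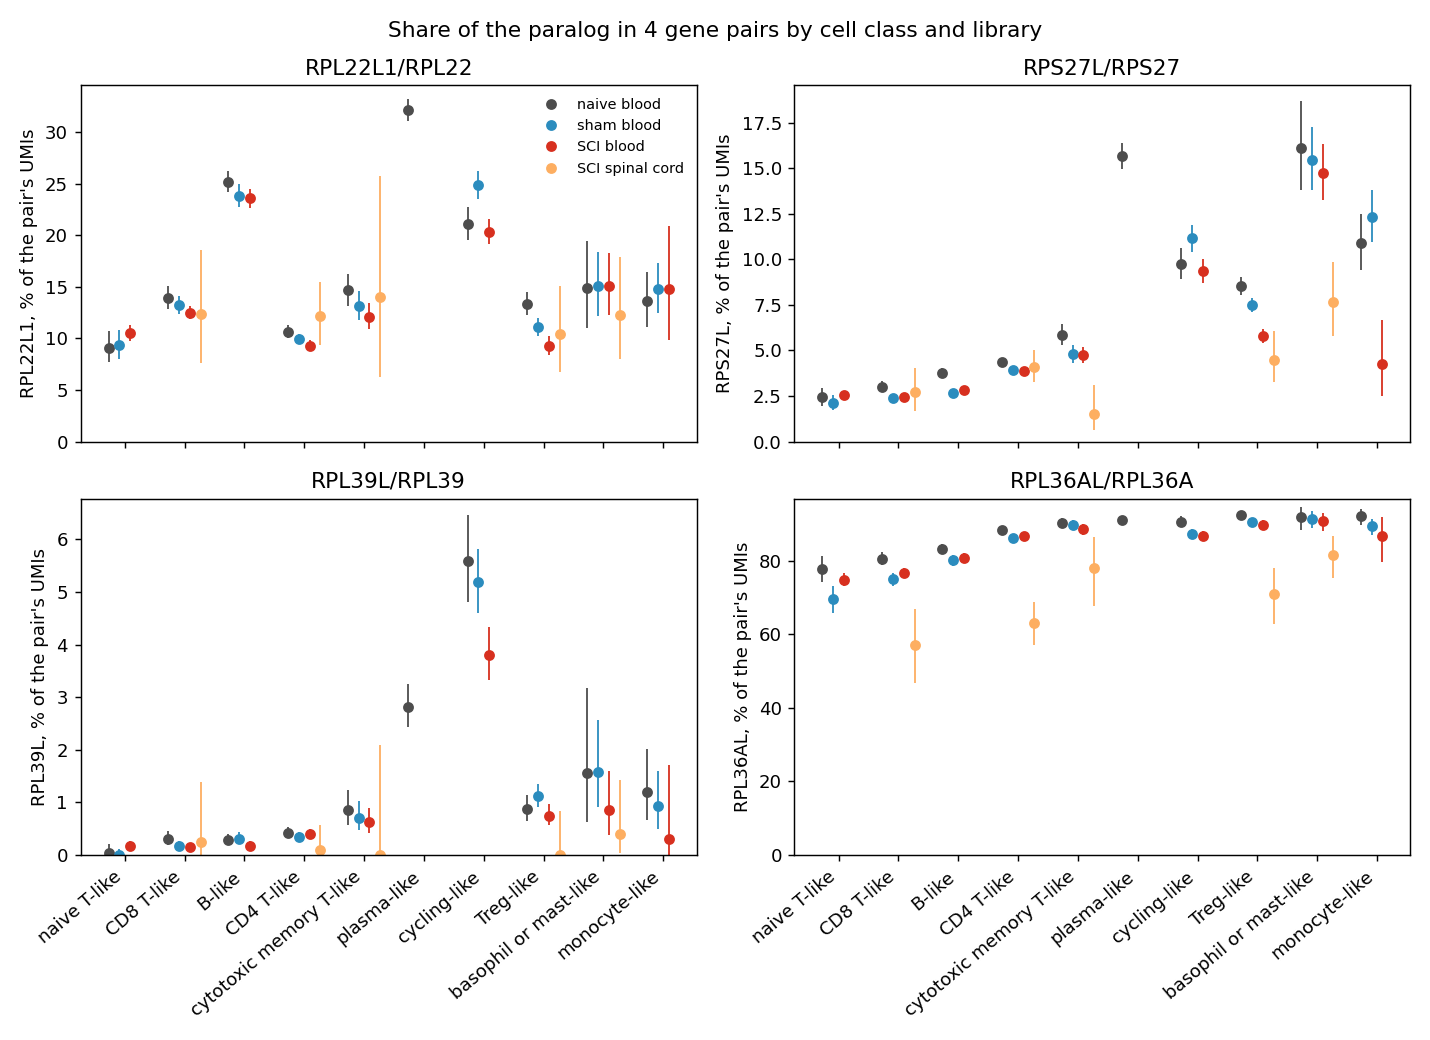
Share of the paralog in the UMIs of 4 gene pairs (vertical axis, percent) by class (horizontal axis) and library (colour), with exact 95% binomial intervals as vertical lines. RPL22L1 is high in plasma-like, B-like and cycling cells, RPS27L in basophil or mast-like and plasma-like cells, RPL39L in cycling cells, and RPL36AL takes a smaller share of its pair in the cord than in SCI blood.

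Other genes of translation were read from fixed lists. Among the 10 genes whose level rose and fell most like the member sum over 27 combinations of class and blood library (of 7594 ranked) were RACK1 (Pearson's r 0.98), which encodes a scaffold protein of the 40S subunit, and NACA (0.98), a subunit of the nascent polypeptide-associated complex. Then came EIF3E (0.96), the elongation factor genes EEF1D (0.96) and EEF2 (0.95), APEX1 (0.94), the noncoding host gene SNHG8 (0.93), RSL1D1 (0.91) and SLC25A6 (0.91). These points share 3 libraries and are not independent, and the values are a description. Among members themselves, 71 of 83 correlated above 0.90 with the sum of the rest, while RPS27L (-0.62), RPL39L (-0.55), RPL36AL (-0.41), RPL26L1 (-0.16) and RPS26 (-0.15) were below 0.

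In SCI against naïve blood, 4 of 7 elongation factor genes were at least 1.2-fold higher, beside 12.4% of all genes. In the other direction 1 was lower, beside 21.2% of all genes, and the median log2 ratio was 0.33. EEF1A1, which delivers aminoacyl-tRNA, had 59.4, 67.6, 87.5 and 63.7 UMIs per 10000 in naïve, sham and SCI blood and cord. Of 7 other genes with TOP mRNAs, 4 were higher and none lower, beside the same shares of all genes (median 0.28). TPT1, the translationally controlled tumour protein, had 58.0, 63.7, 79.4 and 56.8. FAU, which encodes a 40S protein fused to a ubiquitin-like protein, was at 0.24. The summed level of both lists was highest in SCI blood, as was that of the members. All list values are pooled over classes, so differences in makeup between the libraries enter them.

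The remaining lists had medians near 0 or below, apart from the dissociation genes (0.18, with 5 of 12 higher and 2 lower). Each count for SCI against naïve blood stands beside 12.4% of all genes higher and 21.2% lower. Of 35 initiation factor genes 5 were higher, beside 12.4% of all genes, and 4 lower (median -0.02), and EIF1 was at 0.12. Of 23 ribosome assembly genes none was higher and 2 were lower (median -0.07), with NPM1 at 0.09. Of 10 mTOR pathway genes 1 was higher and none lower (median -0.03), with RHEB at -0.03. Of 77 mitochondrial ribosomal protein genes 1 was higher and 20 lower, beside 21.2% of all genes (median -0.16, and -0.05 over all genes), with MRPL51 at -0.19. Of 13 mitochondrial transcripts 1 was higher and none lower (median 0.04), with MT-CO1 at 0.15. The nuclear noncoding RNAs MALAT1 and NEAT1 were at 0.07 and -0.36. In the cord against SCI blood, 4 of 6 elongation factor genes and 4 of 7 other TOP genes were lower, beside 27.8% of all genes. Their medians were -0.42 and -0.48, and the median over members was -0.32.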

How the data were processed

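Human CD45+ cells were profiled with 10x Genomics 3′ v3 chemistry in 1 sequencing run. The deposited counts are UMI counts per gene and barcode made by the authors with Cell Ranger 3.1.0 against GRCh38 and mm10 joined as 1 reference, without further normalization. Human genes only were used, in all barcodes with over 50% human UMIs and without another filter. Members and gene lists were chosen with earlier results of these data known.

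Shares are member UMIs over all human UMIs, with exact binomial intervals at 95%. Ratios use 0.5 added counts and a conditional binomial interval. They were run on simulated data with counting error only, which checks the calculation but not the spread between cells or animals. A gene entered a comparison with at least 100 UMIs over both libraries, and a class with at least 10 barcodes in a library. A 1.2-fold limit replaced a test, since each group had 1 library.

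Barcodes were clustered with scanpy 1.11.5 on 2000 variable genes without ribosomal, mitochondrial and immunoglobulin genes (30 components, 15 neighbours, Leiden resolution 0.8). T cell receptor variable genes, XIST and Y-linked genes were also left out. Each gene was scaled within each library before clustering, also in the small cord library. The effect of this scaling on the classes of cord barcodes was not tested. Clusters were named by fixed markers, and were left unnamed, as decided after seeing them, when over 50% of barcodes carried a doublet mark or when ITGA2B and SELP were among the leading genes. The barcodes with the highest Scrublet scores, at an expected rate of 0.8% per 1000 human barcodes, were marked as doublets and kept. Named genes were the 10 members with the largest mean share, the 3 highest and 3 lowest ratios per comparison, the 5 widest ranges over classes, all paralogs with their canonical genes, up to 3 extremes per class, the most abundant gene of each list and the 10 genes most like the sum. RPS26, RPLP0 and the members listed by length were named after their values were seen. Results of some genes that this rule names are not reported here. TMM factors came from edgeR 4.0.16.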

Additional observations from a re-analysis of the deposited data

Results flagged for a closer look

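In 2 comparisons single classes moved against the others, with counting intervals that did not include 0. In sham against naïve blood, NK-like cells were at a log2 ratio of -0.39 and basophil or mast-like cells at -0.062, while the other 8 classes were above 0. In SCI cord against SCI blood, CD8 T-like cells were at -0.18 and cytotoxic memory T-like cells at -0.079, while CD4 T-like, Treg-like and basophil or mast-like cells were above 0. These values rest on 12 and 16 NK-like barcodes and on 10 cord barcodes in each of the CD8 T-like and cytotoxic memory T-like classes. The difference between classes was not tested, and counting intervals leave out the spread between barcodes and animals.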

How the results depend on the processing

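The direction of the summed share held in the 12 alternatives of each blood comparison, and in 11 of 12 for the cord. The same class weights in both libraries gave log2 ratios of 0.081 (sham against naïve blood), 0.23 (SCI against naïve) and 0.15 (SCI against sham). For cord against SCI blood they gave 0.050, which was reversed. Such weights cover only named classes with at least 10 barcodes in both libraries, and mix inside a class still enters. In the same order, TMM scaling gave 0.060, 0.46, 0.40 and -0.45, itself a shift of -0.05, 0.04, 0.09 and -0.15 for every gene. Thinning to 1000 UMIs gave 0.065, 0.38, 0.31 and -0.30, and leaving mitochondrial genes out of the denominator 0.10, 0.42, 0.31 and -0.32. Leaving out immunoglobulin genes as well gave 0.027, 0.34, 0.31 and -0.32, and leaving out plasma-like and unnamed barcodes, chosen after seeing the data, 0.068, 0.37, 0.30 and -0.21. The mean of barcode shares gave 0.075, 0.39 and 0.31 in blood. Filters by median absolute deviation with a ribosomal criterion gave 0.11, 0.42, 0.31 and -0.30, and without it -0.30 for the cord. A minimum of 90% human UMIs gave 0.11 and 0.41 against naïve blood, and canonical members alone 0.42 and 0.31 for SCI against naïve and sham blood.

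Counts of members higher and lower past the limit, with the same class weights in both libraries, were 6 and 0 (sham against naïve blood), 29 and 0 (SCI against naïve), 4 and 0 (SCI against sham) and 25 and 14 (cord). Of all genes, 6.16% (SCI against naïve), 5.82% (SCI against sham) and 27.4% (cord) were higher with these weights, and 33.3% were lower in the cord. For the other counts of members in this paragraph the share over all genes was not taken, so they are not read as particular to members. A 1.5-fold limit left 0 and 0, 3 and 0, 1 and 0, and 6 and 15. TMM gave 7 and 2 for sham against naïve blood. Without a UMI minimum, 3 members were lower for sham and 5 for SCI against naïve blood. Without ribosomal protein and mitochondrial genes in the denominator, 0 were lower for SCI against naïve blood. RPL22L1 in sham against naïve blood reversed to 0.053 with the same class weights in both libraries. SCI blood stayed above both other blood libraries in all classes compared at resolutions 0.4 (9 classes) and 1.5 (10). No paired analysis was possible because each group is 1 library. With 1 library per group, spread between animals is unknown, the cord classes hold 10 to 34 barcodes, and members under 1 UMI per 10000 are poorly resolved there.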

Other observations

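In the mostly mouse barcodes, mouse ribosomal protein genes took 1.13% (naïve blood), 5.78% (sham blood), 4.56% (SCI blood) and 19.6% (cord) of mouse UMIs. The types of these host cells were not analysed here. Within monocyte-like cells the member share was related to depth over barcodes, with Spearman's rho of 0.53 in naïve and 0.76 in sham blood, whereas rho lay between -0.01 and 0.05 in the CD4 T-like cells of the 3 blood libraries. These are descriptions over cells of 1 library each.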
